A study of Mus musculus with 12 samples.

Results

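The heat shock chaperones described here are 10 mouse genes, Hspa1a, Hspa1b, Hspa8, Hsph1, Dnajb1, Dnaja1, Hsp90aa1, Hspd1, Hspe1 and Hsf1, which were taken by symbol from a table of raw counts over 16234 genes. All 10 symbols were present, and all 10 genes passed the filter on low counts that left 12208 genes for testing. The list was selected on measured values of these libraries, since it was drawn up with earlier results of them known, and which comparison was then in view is not recorded. The values of its genes are therefore given as a description, without p-values. Counts of its genes called are given beside the share of all genes called in the same comparison and support nothing about the list.

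RNA-seq was performed on bone marrow-derived mast cells (BMMCs), which were grown from bone marrow in IL-3 and SCF, from Elk4 wild-type littermate (WT), heterozygous (HZ) and homozygous knockout (KO) mice. The mice carried a conventional knockout, which is not confined to mast cells, on a C57BL/6N background, and were 6 to 12 weeks old and of both sexes. BMMCs of each genotype were either labelled untreated (unstimulated) or sensitized overnight with 0.5 µg/ml anti-DNP IgE and then given 100 ng/ml of the antigen DNP-HSA for 1 h (stimulated), with 2 libraries in each of the 6 groups. The labels name no group given IgE alone and do not say whether untreated cells were sensitized, so the effects of IgE and of antigen cannot be told apart, and stimulation below means both together. The labels do not say whether the 2 libraries of a group came from separate mice or cultures, so the errors below measure the spread between libraries, which may be technical, and a difference between genotypes cannot be told apart from a difference between cultures. The comparisons ask what stimulation changed in each genotype, how the genotypes differed in either state, and whether their responses differed.

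Heat shock proteins are molecular chaperones that bind unfolded or immature proteins and help them to fold, assemble or be degraded. The HSP70 proteins do so in cycles of ATP binding and hydrolysis, which J-domain (HSP40) proteins such as those encoded by Dnajb1 and Dnaja1 drive forward and HSP110 proteins such as that of Hsph1 reset by nucleotide exchange, while HSP90 matures kinases and receptors and the HSP60-HSP10 chamber folds proteins inside mitochondria. Transcription of the inducible members depends on HSF1, a factor that is held inactive by chaperones, forms trimers on stress and binds heat shock elements, which are inverted repeats of GAA. In mast cells, antigen that crosslinks IgE on its receptor FcεRI sets off kinase and calcium signalling, degranulation and a rapid burst of transcription.

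The libraries held 29697958 to 35531667 counts. Elk4, the targeted gene, did not follow the genotype labels in its counts. Before stimulation the KO libraries had 69.7 and 63.5 CPM (counts normalised to library size, with TMM factors), the HZ libraries 93.2 and 86.0 and the WT libraries 73.2 and 78.3. After stimulation the values were 67.1 and 68.5 for KO, 65.2 and 63.7 for HZ, and 78.2 and 67.0 for WT. A deletion inside the gene need not show in its total count, so the labels were not checked by it. ELK4 protein, which the study examined, is not analysed here, and WT, HZ and KO stand for the labels throughout. Of the 12 mast cell markers counted, Kit, Fcer1a, Cpa3 and Cma1 were each at 3909 CPM or more in every library, while group means were 18.7 to 52.6 CPM for Mcpt4 and 17.0 to 1111 CPM for Hdc. Markers of neutrophils, eosinophils, B cells, T cells and erythroid cells summed to at most 0.372 CPM for each cell type. The basophil markers summed to 5.10 to 6.53 CPM in WT, 7.03 to 7.37 CPM in unstimulated and 11.1 to 11.4 CPM in stimulated HZ, and 8.88 to 11.8 CPM in KO, and of the megakaryocyte markers Itga2b was at 1511 to 2421 CPM and Pf4 at 0.144 CPM or less. The 5 macrophage markers summed to 35.7 to 59.9 CPM in unstimulated and 58.9 to 70.2 CPM in stimulated libraries, of which Cd68, a lysosomal gene, made up most, while Csf1r stayed at or below 0.774 CPM and Mrc1 at or below 0.0303 CPM. In each genotype this sum was higher in stimulated libraries, as Cd68 was, whereas the group mean of Lyz2 went from 10.2 to 7.12 CPM in HZ and from 10.9 to 8.37 CPM in KO, and was 4.26 CPM in unstimulated WT. The part of these cell types in the results was not tested. In bulk RNA, fewer cells of a type and less RNA per cell cannot be told apart.

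The 10 genes covered a wide range of levels in unstimulated WT BMMCs when compared per length of gene (FPKM). Hspa8, the constitutive HSP70 of the cytosol, was the highest at 596 ± 4.87 FPKM (SD, n = 2), followed by Hsp90aa1 at 253 ± 1.57 and Dnajb1 at 142 ± 1.82 FPKM. Hspe1 (80.7 ± 4.27 FPKM), Hspd1 (60.8 ± 0.473), Dnaja1 (37.4 ± 0.736), Hsf1 (19.7 ± 0.250) and Hsph1 (12.1 ± 0.128) came next, and no 2 neighbours from Hspa8 to Hsph1 overlapped. The stress-inducible HSP70 genes Hspa1a and Hspa1b were the lowest, at 0.358 ± 0.0126 and 0.350 ± 0.0375 FPKM, and did not differ beyond their spread. After stimulation of WT, Dnajb1 stood second, at 849 ± 9.71 FPKM, behind Hspa8 at 1006 ± 3.30. Hsp90aa1 (294 ± 3.58 FPKM), Hspe1 (77.4 ± 0.848), Hspd1 (69.2 ± 0.630), Dnaja1 (43.2 ± 0.212), Hsf1 (16.3 ± 1.37), Hsph1 (14.0 ± 0.374), Hspa1b (12.4 ± 0.135) and Hspa1a (8.72 ± 0.788) followed without overlap between neighbours. The place of Dnajb1 among the unstimulated members depended on genotype: it was the third of the 10 in WT, the fourth in KO (82.2 ± 1.72 FPKM) and the sixth in HZ (27.6 ± 0.0344 FPKM), and the second in all 3 genotypes after stimulation.

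In each genotype 9 of the 10 genes, that is all but Hsf1, were called higher in stimulated BMMCs in the fit across all genes. The fit is edgeR's quasi-likelihood model of the 6 groups, in which a gene is called at a Benjamini-Hochberg adjusted p below 0.05 over the 12208 genes. By the same rule 22.4% of all genes tested were called higher in WT, 32.9% in HZ and 20.4% in KO, and none of the 10 genes was called lower, against 22.9%, 31.6% and 20.5% of all genes. With the study's 2-fold limit added, 4 of the 10 remained in WT (Hspa1a, Hspa1b, Dnajb1 and Hspa8), 7 in HZ (these 4, Hsph1, Hsp90aa1 and Hspd1) and 3 in KO (Hspa1a, Hspa1b and Dnajb1), against 3.71%, 7.02% and 3.73% of all genes, and 0 were lower by 2-fold in any, against 3.06%, 7.28% and 2.88%. The median log2 difference of the 10 genes was 0.52 in WT, 1.38 in HZ and 0.42 in KO, and that of all genes tested lay between -0.01 and -0.00. Together the 10 genes made up 0.290 to 0.292% of all counts in unstimulated and 0.626 to 0.629% in stimulated WT, 0.195 to 0.197% and 0.605 to 0.611% in HZ, and 0.334 to 0.336% and 0.557 to 0.559% in KO.

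The size of the smaller changes depended on the scaling of the libraries. TMM factors of unstimulated libraries were 1.08 to 1.12, and those of stimulated libraries 0.902 to 0.924. Scaling by library totals alone moved the median log2 difference of all genes to -0.32 in WT, -0.24 in HZ and -0.30 in KO, and the share of called genes that were higher from 49.4% to 10.2% in WT, from 51% to 29.3% in HZ and from 49.9% to 10.5% in KO. Under it WT had 8 of the 10 genes called higher and 1 lower (6.9% and 60.6% of all genes tested). HZ had 9 and 0 (20% and 48.3%), and KO had 5 and 2 (7.03% and 59.8%). Hspa1a, Hspa1b, Dnajb1, Hspa8 and Hsph1 were called higher in all 3 genotypes under either scaling.

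**Figure D1:**
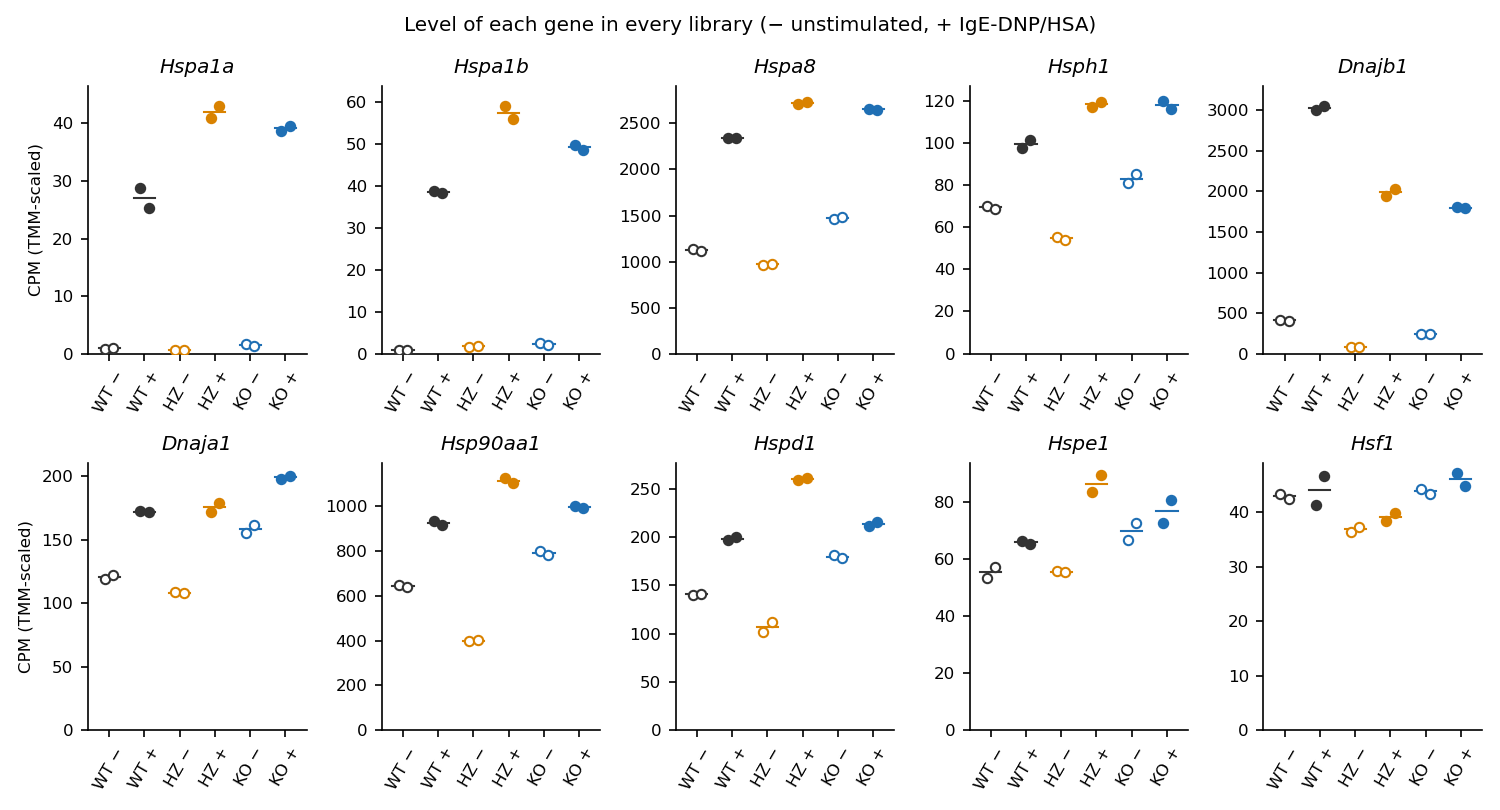
Level of each gene in every library, as CPM scaled by TMM on a linear axis from 0, with 2 libraries a group (points) and their mean (line); open points and minus signs are unstimulated and filled points and plus signs stimulated BMMCs. Stimulated libraries lie above unstimulated libraries of the same genotype for 8 of the genes in all 3 genotypes, whereas the KO groups of Hspe1 and the WT groups of Hsf1 overlap. The share of all genes whose groups separate in this way was not computed, so the count supports nothing about the list.

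Hspa1a and Hspa1b encode the stress-inducible HSP70 of the cytosol and had the lowest unstimulated levels of the list. Hspa1a was at 0.875 and 0.915 CPM in unstimulated and 28.7 and 25.3 CPM in stimulated WT, at 0.662 and 0.667 and then 40.9 and 43.0 CPM in HZ, and at 1.63 and 1.27 and then 38.7 and 39.5 CPM in KO. Every stimulated library was thus far above every unstimulated one, and the WT libraries were the lowest of the stimulated ones. The gene rose 30.02-fold in WT (95% confidence interval 24.3 to 37.1), 62.8-fold in HZ (50.6 to 77.9) and 26.9-fold in KO (22.3 to 32.4). The unstimulated levels rest on 22 to 61 counts a library, so these folds carry the widest intervals of the list. On the log2(FPKM + 1) scale, which understates changes of low genes, the difference in WT was 2.84 instead of 4.91, and that of Hspa1b 3.31 instead of 5.45.

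Hspa1b behaved similarly. It was at 0.815 and 0.943 CPM in unstimulated and 38.9 and 38.3 CPM in stimulated WT, at 1.70 and 1.94 and then 59.1 and 55.9 CPM in HZ, and at 2.43 and 1.97 and then 49.9 and 48.6 CPM in KO. Its groups did not overlap in any genotype, and the order of the stimulated groups was WT, KO and HZ from low to high. The fold rise was 43.7 in WT (36.1 to 52.9), 31.6 in HZ (26.8 to 37.2) and 22.3 in KO (19.0 to 26.1).

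The counts of these 2 genes are uncertain as separate values, because their sequences are nearly identical and how the counting treated reads that fit both is not given in the sources used here. Hspa1b held 48.2% and 50.8% of the pair's counts in unstimulated WT, 72.0% and 74.4% in unstimulated HZ and 59.9% and 60.9% in unstimulated KO, and 55.2 to 60.3% in the 6 stimulated libraries. The exact 95% binomial interval, which covers counting error only, was 34.7 to 62.0% in the first unstimulated WT library and 60.9 to 81.3% in the first unstimulated HZ library. Counts of both genes summed before the fit rose 36.9-fold in WT (31.9 to 42.6), 40.0-fold in HZ (35.0 to 45.7) and 24.1-fold in KO (21.3 to 27.3).

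**Figure D2:**
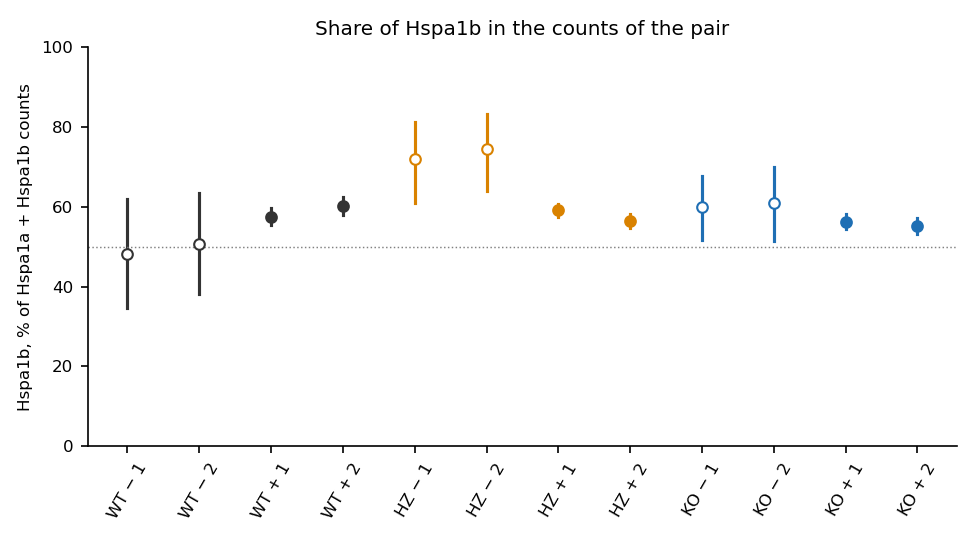
Share of Hspa1b in the summed counts of Hspa1a and Hspa1b, in percent, in each of the 12 libraries (open points and a minus sign, unstimulated; filled points and a plus sign, stimulated), with the exact 95% binomial interval as a bar and 50% as a dotted line. The 6 stimulated libraries lie between 55.2 and 60.3%, and the unstimulated HZ libraries are the highest, at 72.0 and 74.4%.

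The near identity extends to their promoters, shown here because both genes rose with stimulation in each genotype. The 250 bases before the RefSeq start of each gene (GRCm38.p6, minus strand of chromosome 17) were the same at 247 of 250 positions (98.8%), with Hspa1a at chr17:34972157-34972406 and Hspa1b at chr17:34959239-34959488. Capitals mark the match to GAANNTTC, a pair of inverted GAA repeats, which lay 104 bases before the start in both.
Hspa1a: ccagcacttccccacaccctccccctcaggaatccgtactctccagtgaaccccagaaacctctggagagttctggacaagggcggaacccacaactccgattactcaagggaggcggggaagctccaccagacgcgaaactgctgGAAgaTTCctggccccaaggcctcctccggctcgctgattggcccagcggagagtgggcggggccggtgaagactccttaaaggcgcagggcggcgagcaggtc
Hspa1b: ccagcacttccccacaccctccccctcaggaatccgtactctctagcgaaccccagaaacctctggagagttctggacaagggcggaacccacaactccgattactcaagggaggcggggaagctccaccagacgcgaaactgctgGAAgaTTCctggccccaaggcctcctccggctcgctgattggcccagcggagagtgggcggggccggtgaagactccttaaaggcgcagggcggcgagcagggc

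RefSeq windows were at hand for 7 of the 10 genes, 12 windows in all, and were searched on both strands beside 32841 windows of all genes. Several of the 12 overlap or are nearly identical, as for the starts of Hsph1, for Hspd1 and Hspe1, and for Hspa1a and Hspa1b. The same site can thus count more than once, and the counts below support nothing about the list. GAANNTTC was in 5 of the 12 windows (of Hspa1a, Hspa1b, Dnaja1, Hspd1 and Hspe1) and in 6.7% of all windows. The inverse pair TTCNNGAA was in 4 of the 12 (of Hspd1, Hspe1 and Hsph1) and in 7.17% of all windows. The full heat shock element, in which both pairs overlap as 3 alternating units, was in 2 of the 12 (of Hspd1 and Hspe1) and in 0.466% of all windows. Only exact matches were counted, and elements with an imperfect unit were not searched, so the other windows are not shown to lack an element. CCAAT was in 7 of the 12 (of Hspa1a, Hspa1b, Dnajb1, Dnaja1 and Hsph1) and in 33.9% of all windows. ELK4 is an ETS factor that binds DNA beside serum response factor. The exact ETS sequence CCGGAAGT (2.88% of all windows) and the CArG box of serum response factor (1.47%) were in none of the 12. Shorter or inexact ETS matches were not searched, so the windows are not shown to lack ETS sites. A match describes the letters in this window and is not a measured site.

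Dnajb1 encodes the HSP40 that activates HSP70 and is itself induced by stress. It showed the largest gain in CPM of the list. It was at 414 and 404 CPM in unstimulated and 3005 and 3056 CPM in stimulated WT, at 82.1 and 82.5 and then 1944 and 2034 CPM in HZ, and at 237 and 245 and then 1805 and 1792 CPM in KO. The groups did not overlap, and WT was the highest genotype both before and after stimulation. The fold rise was 7.41 in WT (7.14 to 7.69), 24.2 in HZ (23.2 to 25.2) and 7.47 in KO (7.19 to 7.76). By counts, Dnajb1 moved from rank 285 and 294 among all genes to rank 37 and 35 in the WT libraries, from 2467 and 2457 to 52 and 52 in HZ, and from 687 and 653 to 61 and 62 in KO.

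Dnaja1, another HSP40 of the cytosol that works with HSP70 on folding and import, changed far less. It was at 119 and 122 CPM in unstimulated and 173 and 172 CPM in stimulated WT, at 108 and 108 and then 172 and 179 CPM in HZ, and at 155 and 161 and then 198 and 200.1 CPM in KO. The groups did not overlap in any genotype, and the fold rise was 1.43 in WT (1.35 to 1.51), 1.62 in HZ (1.53 to 1.71) and 1.26 in KO (1.19 to 1.33). The call in KO was lost with scaling by library totals, where the log2 difference was 0.04 instead of 0.33.

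Hspa8 encodes HSC70, the HSP70 that cells make at all times and that also uncoats clathrin vesicles. It was at 1131 and 1112 CPM in unstimulated and 2347 and 2338 CPM in stimulated WT, at 963 and 973 and then 2713 and 2733 CPM in HZ, and at 1464 and 1479 and then 2659 and 2646 CPM in KO. Replicates lay much closer to each other than to any library of the other state. The rise was 2.09-fold in WT (2.03 to 2.15), 2.81-fold in HZ (2.73 to 2.90) and 1.80-fold in KO (1.75 to 1.86).

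Hsph1, the HSP110 that recharges HSP70, was at 70.2 and 68.8 CPM in unstimulated and 97.7 and 102 CPM in stimulated WT, at 55.3 and 54.0 and then 117 and 119 CPM in HZ, and at 80.7 and 85.3 and then 119.9 and 116 CPM in KO. It rose 1.43-fold in WT (1.34 to 1.53), 2.16-fold in HZ (2.02 to 2.31) and 1.42-fold in KO (1.33 to 1.52), with no overlap between groups. HZ was the lowest genotype before stimulation, and afterwards HZ and KO overlapped above WT.

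Hsp90aa1 encodes the stress-inducible HSP90 of the cytosol. It was at 649 and 639 CPM in unstimulated and 934 and 918 CPM in stimulated WT, at 400.1 and 401 and then 1125 and 1105 CPM in HZ, and at 799 and 784 and then 1001 and 992 CPM in KO. HZ thus went from the lowest to the highest of the 3 genotypes. The rise was 1.44-fold in WT (1.39 to 1.49), 2.78-fold in HZ (2.68 to 2.89) and 1.26-fold in KO (1.21 to 1.30). In KO the log2 difference was 0.33, and 0.04 and no longer called with scaling by library totals.

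Hspd1 (HSP60) and Hspe1 (HSP10) encode the barrel and the lid of the mitochondrial chaperonin and lie head to head on chromosome 1. Their nearest RefSeq starts were 215 bases apart. The stretch between them that carries the full heat shock element, shown here because the genes share it, was at chr1:55088053-55088082 (GRCm38.p6, plus strand), and its capitals mark 4 alternating TTC and GAA units, in which the element can be read on either strand.
Hspd1-Hspe1: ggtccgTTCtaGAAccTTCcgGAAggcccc

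This run ended 72 bases before the start of Hspe1 and 127 bases before that of Hspd1. Hspd1 was at 140.3 and 141 CPM in unstimulated and 197 and 199.7 CPM in stimulated WT, at 102 and 112 and then 259 and 261 CPM in HZ, and at 181 and 178 and then 211 and 216 CPM in KO. It rose 1.41-fold in WT (1.34 to 1.49), 2.44-fold in HZ (2.31 to 2.57) and 1.19-fold in KO (1.13 to 1.25), with no overlap between groups, but with scaling by library totals its log2 difference in KO turned from 0.25 to -0.040. Hspe1 was at 53.5 and 57.3 CPM in unstimulated and 66.3 and 65.3 CPM in stimulated WT, at 55.7 and 55.3 and then 83.3 and 89.3 CPM in HZ, and at 66.6 and 72.6 and then 72.5 and 80.8 CPM in KO. It rose 1.19-fold in WT (1.09 to 1.29), 1.55-fold in HZ (1.43 to 1.68) and 1.10-fold in KO (1.02 to 1.19), and with scaling by library totals the log2 difference turned from 0.25 to -0.061 in WT and from 0.14 to -0.15 in KO. The KO groups overlapped, and the call in KO was lost without any of 6 libraries, among them the second stimulated KO library (log2 difference 0.06).

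Hsf1, the transcription factor of the heat shock response, kept to a narrow range. It was at 43.4 and 42.4 CPM in unstimulated and 41.4 and 46.6 CPM in stimulated WT, at 36.4 and 37.4 and then 38.4 and 39.8 CPM in HZ, and at 44.3 and 43.3 and then 47.2 and 44.9 CPM in KO. The WT groups overlapped, and the HZ and KO groups did not. The log2 difference was 0.04 in WT (95% confidence interval -0.10 to 0.17), 0.08 in HZ (-0.05 to 0.22) and 0.07 in KO (-0.06 to 0.21) and was called in none, and with scaling by library totals it was -0.27 in WT and -0.22 in KO. HSF1 is controlled mainly as a protein, which these libraries do not measure.

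**Figure D3:**
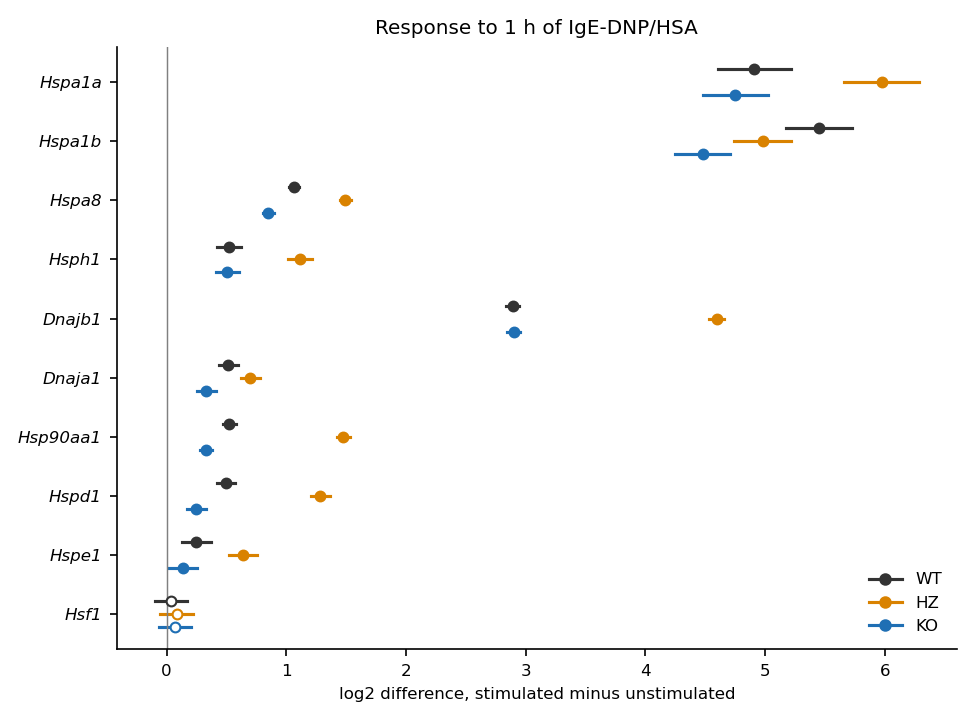
Log2 difference between stimulated and unstimulated BMMCs (horizontal axis) for each gene in WT, HZ and KO, from the fit across all genes, with bars for the 95% confidence interval; open points were not called. Hspa1a, Hspa1b and Dnajb1 stand apart at 2.89 and above, and the value in HZ is the highest of the 3 genotypes for every gene except Hspa1b.

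Before stimulation, 8 of the 10 genes were called higher in libraries labelled KO than in WT (22.9% of all genes tested) and 1, Dnajb1, lower (21.7%), whereas in libraries labelled HZ only Hspa1b was called higher (25.4%) and 7 genes lower (26%). The median log2 difference of the 10 genes was 0.34 for KO and -0.28 for HZ, beside 0.02 and 0.00 for all genes tested. For 7 genes KO had the highest and HZ the lowest mean of the 3 genotypes, so that WT and not HZ lay in the middle. The share of all genes with this order was not computed. With the 2-fold limit added, Hspa1b remained higher in KO (2.64% of all genes) and in HZ (3.83%), and Dnajb1 remained lower in HZ (5.32%) and no gene in KO (4.87%). HZ and KO were compared with the same WT libraries.

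Dnajb1 differed the most among the genotypes before stimulation. With 414 and 404 CPM in WT, 237 and 245 in KO and 82.1 and 82.5 in HZ, its log2 difference from WT was -0.76 in KO (-0.82 to -0.71) and -2.31 in HZ (-2.37 to -2.25), or 1.70-fold and 4.97-fold lower. Hsp90aa1 lay 1.61-fold below WT in HZ (log2 difference -0.68) and 1.23-fold above it in KO (log2 difference 0.30). Hspa8, Hspd1, Hsph1 and Dnaja1 followed the same course, with log2 differences of 0.39, 0.35, 0.26 and 0.39 in KO and -0.21, -0.40, -0.35 and -0.16 in HZ. Hspe1 was called higher in KO (log2 difference 0.33) and was level with WT in HZ (0.00, with an interval of -0.12 to 0.12). Hsf1 was called lower in HZ (-0.22), a call that was lost without the first unstimulated HZ library, and was at 0.03 in KO (-0.10 to 0.16).

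The inducible HSP70 genes rested on few counts here. Hspa1b was called higher in KO (log2 difference 1.32, 0.90 to 1.75) and in HZ (1.04, 0.59 to 1.49). Hspa1a was called higher in KO (0.69, 0.22 to 1.17), but not without the first or the second unstimulated WT library or the first unstimulated KO library, and was not called in HZ (-0.43, -1.002 to 0.15). With the counts of both genes summed, the difference from WT was 1.04 in KO and 0.48 in HZ, so the sum followed Hspa1b in HZ, where Hspa1a was at 23 and 22 counts against 29 and 32 in WT.

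After stimulation, libraries labelled KO had 8 genes called higher than WT (21.2% of all genes tested) and Dnajb1 lower (19.2%), and those labelled HZ had 7 higher (18.4%) and 2, Dnajb1 and Hsf1, lower (16.5%). The ratio of the highest to the lowest genotype mean was smaller after stimulation for 9 of the 10 genes, all but Hspe1, for which it was 1.26 before and 1.31 after. It went from 4.97 to 1.69 for Dnajb1, from 1.98 to 1.20 for Hsp90aa1, from 1.68 to 1.31 for Hspd1 and from 1.52 to 1.16 for Hspa8. HZ, which had been the lowest for most genes, now had the highest mean for 7 of the 10, and WT the lowest for 8. Shares of all genes were not computed for these counts, which support nothing about the list. Over all genes tested, the median absolute log2 difference from WT was also smaller after stimulation. It went from 0.257 to 0.179 in HZ and from 0.212 to 0.197 in KO.

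Dnajb1 was again below WT after stimulation, by log2 differences of -0.75 in KO (-0.80 to -0.70) and -0.61 in HZ (-0.66 to -0.56), and was the sole gene past the study's limit of 0.66-fold for stimulated genotypes in either, against 7.22% of all genes in KO and 4.33% in HZ. Past the limit of 1.5-fold was Hspa1a in HZ, at 1.55-fold (1.36 to 1.77), against 3.56% of all genes, and none in KO, against 5.44%. The remaining differences were smaller. In KO they were 0.54 for Hspa1a, 0.35 for Hspa1b, 0.24 for Hsph1, 0.22 for Hspe1, 0.21 for Dnaja1, 0.18 for Hspa8, and 0.11 each for Hsp90aa1 and Hspd1. In HZ they were 0.57 for Hspa1b, 0.39 each for Hspd1 and Hspe1, 0.27 for Hsp90aa1, 0.25 for Hsph1 and 0.22 for Hspa8. The call of Hspd1 in KO was lost with DESeq2 size factors (0.09) and without any of 4 libraries, that of Hspe1 in KO without the second stimulated KO library (0.14), and that of Hsf1 in HZ (-0.17) without any of 9 libraries, with -0.08 without the second stimulated WT library.

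**Figure D4:**
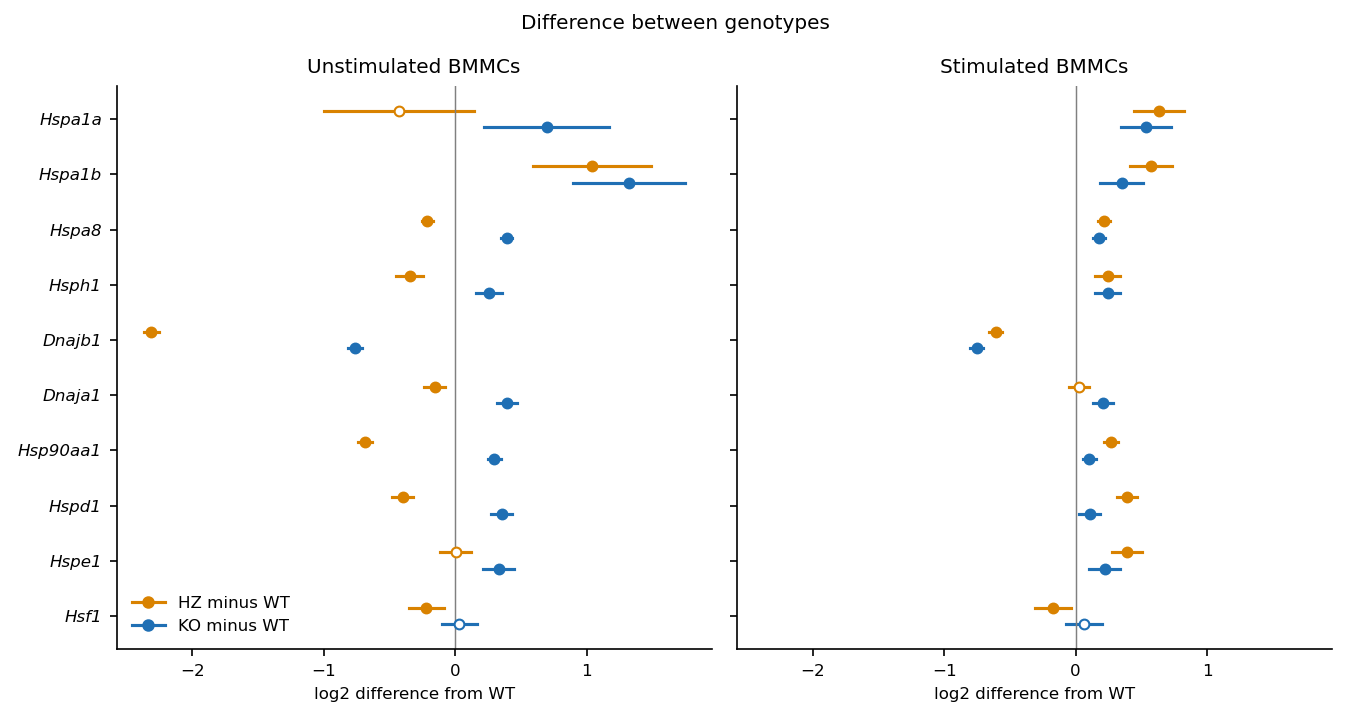
Log2 difference from WT in HZ and KO libraries (horizontal axis, the same in both panels) before and after stimulation, from the fit across all genes, with bars for the 95% confidence interval; open points were not called. Before stimulation most genes lie to the left of 0 in HZ and to the right in KO, and after stimulation all but Dnajb1 and Hsf1 lie within 0.03 to 0.64.

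In HZ the rise was larger than in WT for 8 genes (19.9% of all genes tested) and called smaller for none (18.6%). In KO it was smaller for 5 genes (3.83%) and called larger for none (5.44%). Hspa8, Dnaja1, Hsp90aa1 and Hspd1 were called in both, in opposite directions. The median of the 10 response differences was 0.51 in HZ and -0.17 in KO, beside 0.01 and -0.01 for all genes tested, and both share the WT libraries. With a 2-fold limit added, 2 genes remained larger in HZ (3.96% of all genes) and 0 smaller (2.02%), and in KO 0 remained in either direction (0.491% larger, 0.213% smaller). The rise of Dnajb1 in HZ exceeded that in WT by 1.71 on the log2 scale (1.63 to 1.78), or 3.26-fold, whereas in KO it differed from WT by 0.01 (-0.06 to 0.08). Hsp90aa1 (0.95), Hspd1 (0.79), Hsph1 (0.59), Hspa8 (0.43), Hspe1 (0.39) and Dnaja1 (0.18) also rose more in HZ, and Hspd1 (-0.25), Hspa8 (-0.21), Hsp90aa1 (-0.19) and Dnaja1 (-0.18) rose less in KO. The call of Dnaja1 in KO was lost without any of 6 libraries. For Hspa1a the difference in HZ was 1.06 (0.46 to 1.67), and it was 0.12 and no longer called when the pair was summed. In KO Hspa1a differed by -0.16 and was not called, and the summed pair by -0.61, which was called. In HZ Hspa1b differed from WT by -0.47 and was not called. For Hspa1b the difference in KO was -0.97 (-1.43 to -0.51), and it was -0.81 and no longer called without the first unstimulated KO library, and -0.14 and not called with limma on log2(FPKM + 1).

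Other genes of the chaperone system, from 9 lists of 102 tested genes outside the 10, were described by the same fit. In WT 50 were called higher and 5 lower (22.4% and 22.9% of all genes tested), in HZ 65 and 12 (32.9% and 31.6%), and in KO 46 and 13 (20.4% and 20.5%), with median log2 differences of 0.18, 0.38 and 0.13. These counts depended on the scaling, as did those of all genes. With library totals WT had 16 called higher and 48 lower (6.9% and 60.6% of all genes tested). HZ then had 52 and 24 (20% and 48.3%), and KO had 14 and 54 (7.03% and 59.8%). The lists were chosen with earlier results known and share genes with each other.

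By family, 8 of 10 other HSP70 and HSP110 genes, 8 of 9 subunits of the cytosolic chaperonin TRiC, 17 of 18 chaperones and unfolded protein response genes of the endoplasmic reticulum (ER), and 9 of 11 other heat-inducible genes were called higher in WT and none lower. Of 37 other J-domain genes, 8 were called higher, a share near the 22.4% of all genes tested, and 3 lower (22.9%). With library totals these counts were 4 and 0, 1 and 2, 6 and 6, 5 and 3, and 2 and 22, beside 6.9% and 60.6% of all genes tested. Genes named by the rule that rose include Dnajb9, an ER cochaperone of BiP (58.7 ± 5.21 to 227 ± 10.2 CPM, log2 difference 1.95), Hmox1, heme oxygenase (212 ± 1.29 to 720.2 ± 4.03 CPM, 1.77), Hspa4l, an HSP110 (68.7 ± 0.370 to 151 ± 5.01 CPM, 1.13), and Hspa5, which encodes BiP (1394 ± 21.3 to 3012 ± 4.05 CPM, 1.11). All 4 of these passed the 2-fold limit. Hsp90ab1, the constitutive partner of Hsp90aa1, rose by 0.43 on the log2 scale, Hsp90b1 of the ER by 0.20, Dnajb6 by 0.71, the TRiC subunits Cct7 and Cct5 by 0.40 and 0.35, and the cochaperones Unc45a and Stip1 by 0.47 and 0.34. Lower were the J-domain genes Dnajb5 (-0.64) and Dnaja3 (-0.23), the cochaperone Tomm34 (-0.18) and the heat shock factor Hsf4 (-0.62). The J-domain gene Dnajc28 was also called lower (-2.89) and was named after its value was seen. Dnajc28 was below the count limit of the naming rule, so the size of its fall rests on few counts and is uncertain. Of the heat-inducible genes, Bag3 (-0.08), whose product releases clients from HSP70, and Ahsa1 (0.11), an activator of HSP90, were not called in WT and were named after their values were seen. Of the small heat shock proteins, 1 of 9 passed the filter, Hspb6, and it was not called in any genotype.

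**Figure D5:**
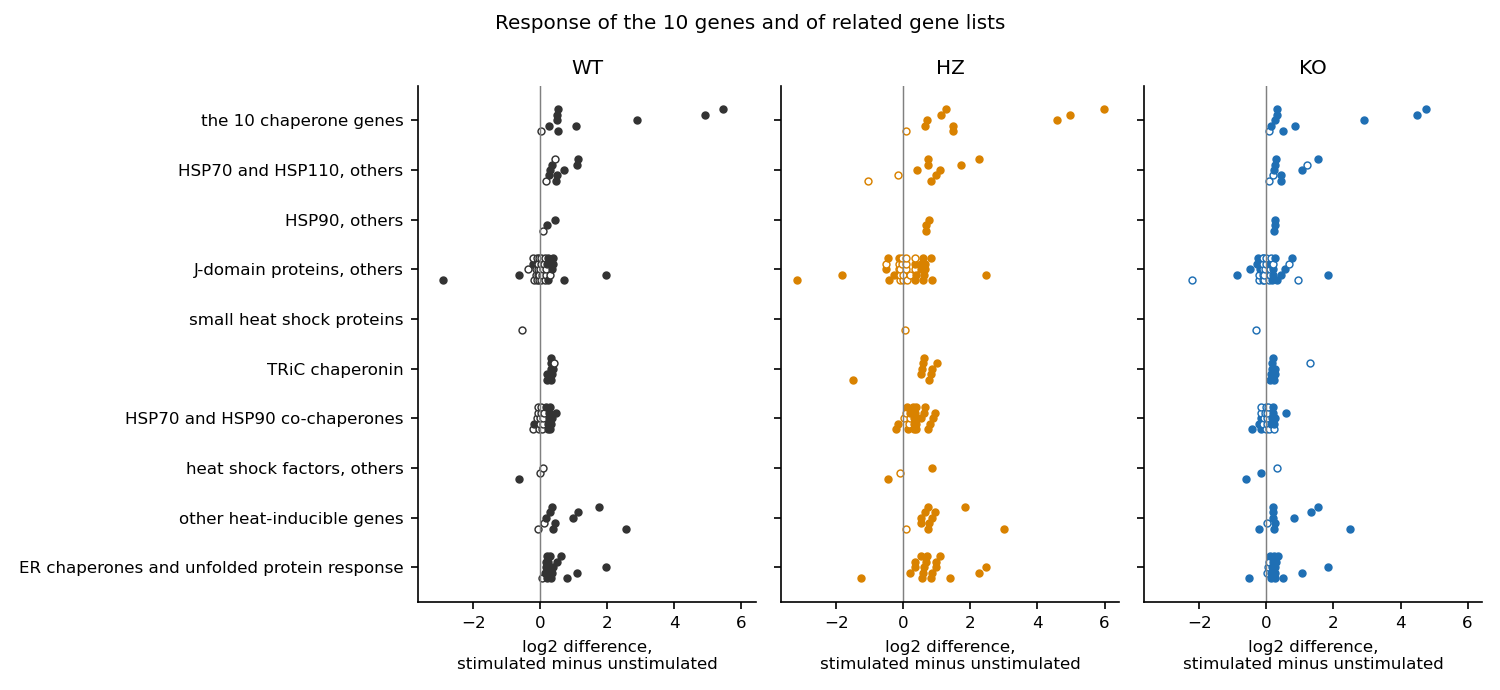
Log2 difference between stimulated and unstimulated BMMCs (horizontal axis) of the 10 genes and of each tested gene of the 9 related lists, in WT, HZ and KO; each point is a gene, filled where called, and the small vertical offsets only separate points. Hspa1a, Hspa1b and Dnajb1 lie to the right of the genes of every related list in all 3 genotypes.

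Before stimulation, libraries labelled KO had 48 of the 102 related genes called higher than WT and 10 lower (22.9% and 21.7% of all genes tested), and those labelled HZ 14 higher and 48 lower (25.4% and 26%), with median log2 differences of 0.13 and -0.13. In KO, 8 of 9 TRiC genes, 13 of 18 ER genes and 12 of 24 cochaperones of HSP70 and HSP90 were called higher, and 1, 1 and 0 lower. Of the other lists, 13 of 37 J-domain genes were called higher and 4 lower, and 6 and 2 of 11 heat-inducible genes. The counts were 3 and 2 of 10 other HSP70 and HSP110 genes (median log2 difference -0.04) and 1 and 1 of 3 other HSP90 genes. In the list of other heat shock factors, which includes Hsbp1, they were 1 and 0 of 3 genes (median -0.15). The gene called there was Hsbp1, which encodes a heat shock factor binding protein and not a heat shock factor. The named genes of the first 3 lists were Cct3 (0.35), Cct6a (0.30), Herpud1 (0.37), Xbp1 (0.28), Fkbp5 (0.76) and Bag1 (0.59), and beside them Dnajb4 (0.80), Dnajc27 (0.77), Hspa4 (0.36), Fkbp4 (0.32), Hsbp1 (0.35), Hsp90ab1 (0.19) and Hyou1 (0.15) were higher. Hspa13 (-0.47), Hmox1 (-0.36), Dnajc9 (-0.29), Hspa14 (-0.24), Hsp90b1 (-0.19) and Dnajc13 (-0.18) were lower in KO, so the members of 1 family moved in different directions.

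Hspa1a, which varied the most among the 10 genes over the 12 libraries, served to find genes of similar pattern. Over the 12 libraries and 9848 genes with enough counts, high Pearson correlations of log2 CPM with it were those of Rasgef1b (0.998), Zfp36 (0.997), Klf9 (0.996) and Ism1 (0.996). The libraries fall into unstimulated and stimulated ones, so these values mostly describe that split. Rasgef1b went from 3.20 and 3.57 to 127 and 121 CPM in WT, from 1.70 and 1.43 to 218 and 226 CPM in HZ, and from 4.43 and 3.66 to 221 and 227 CPM in KO, and so shared with Hspa1a the lower stimulated level in WT. Of the listed genes, Hspa1b (0.987), Hspa8 (0.982), Hsph1 (0.932) and Dnajb1 (0.928) came nearest to Hspa1a, and Hsf1 (0.314) was the farthest.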

How the data were processed

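RNA of 12 mouse BMMC libraries was sequenced, trimmed with fastp, aligned with HISAT2 to GRCm39 and counted with HTSeq, per the submitters' processing notes and the study's methods. The authors deposited raw counts per gene, which were the values tested, and FPKM scaled by library total and gene length, which served to compare levels between genes. The strand setting of the counting is not given in the sources used here.

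The 10 genes and all related lists were chosen with earlier results of these data known. Counts were fitted with edgeR 4.0.16 (R 4.3.3; TMM scaling, filterByExpr, glmQLFit and glmQLFTest) in 1 model of the 6 groups, with Benjamini-Hochberg adjustment over 12208 genes and calls at an adjusted p below 0.05. A second rule added the study's fold limits (2-fold, or 1.5-fold and 0.66-fold between stimulated genotypes). CPM were scaled by TMM, and confidence intervals are those of the fit. FPKM were log2 transformed with a pseudocount of 1 or 0.1 for limma 3.58.1, and DESeq2 1.42.0 was another alternative. From each related list the text names up to 2 called genes that rose most and up to 2 that fell most in stimulated WT and in unstimulated KO against WT, with at least 100 counts, and the 5 genes most correlated with the listed gene of largest SD. Tested on simulated data for stimulated against unstimulated WT (12208 genes), the fit called 100 of 100 genes changed by 1.5 on the log2 scale, 82 of 100 changed by 0.4 and 13 unchanged genes. The simulated rises and falls were equal in number and set in well-counted genes. They test neither the effect of scaling nor the detection of changes in genes of few counts. Promoter windows are RefSeq's on GRCm38.p6, and no coordinates were converted. Some genes that the rule picks are not reported here.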

Additional observations from a re-analysis of the deposited data

Results flagged for a closer look

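The response to stimulation differed from that of WT in 13 cases, each by a test of the difference itself (the interaction of genotype and stimulation in edgeR's quasi-likelihood fit), whose outcome is given as a description since the genes were chosen with results known. In HZ the log2 fold change exceeded that in WT by 1.71 for Dnajb1, 1.06 for Hspa1a, 0.95 for Hsp90aa1, 0.79 for Hspd1, 0.59 for Hsph1, 0.43 for Hspa8, 0.39 for Hspe1 and 0.18 for Dnaja1. In KO it was below that in WT, by -0.97 for Hspa1b, -0.25 for Hspd1, -0.21 for Hspa8, -0.19 for Hsp90aa1 and -0.18 for Dnaja1.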

How the results depend on the processing

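Of 2138 alternative values for single genes, 2023 kept direction and side of the threshold, 59 were no longer called, 2 became called, 31 moved and 23 reversed. The numbers that follow are genes called, for the 10 genes first. Shares of all genes called are given above for the fold limits and below for scaling by library totals. For the other settings they are not given, so those counts support nothing about the lists.

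With the study's fold limits added, 4 of the 10 genes stayed higher in stimulated WT and 3 in KO. Before stimulation 1 was higher and 0 lower in KO against WT and 1 lower in HZ, and after stimulation 0 were higher in KO and 1 higher and 1 lower in HZ. The response was smaller for 0 in KO and larger for 2 in HZ. With scaling by library totals, 1 gene was lower in stimulated WT, 5 were higher and 2 lower in KO, and 1 was lower in HZ against WT after stimulation. Of all genes tested, 6.9% were then called higher and 60.6% lower in WT, 48.3% lower in HZ, and 7.03% higher and 59.8% lower in KO. In HZ against WT 21.3% were called higher before and 14.2% lower after stimulation, and 14.1% had smaller responses in HZ. For the 102 related genes this scaling gave 16 higher and 48 lower in WT, 24 lower in HZ and 14 higher and 54 lower in KO, with 6 higher in unstimulated HZ and 6 smaller responses in HZ. With limma on log2(FPKM + 1), 1 of the 10 was lower in WT, 1 in HZ and 2 in KO, where 5 were higher, 1 was lower in HZ against WT after stimulation, and 3 responses were smaller in KO. The related genes were then 17 higher and 47 lower in WT and 13 higher and 57 lower in KO, with 7 higher in unstimulated HZ and 6 smaller responses in HZ. A pseudocount of 0.1 gave 1, 1 and 2 lower and 5 higher in KO, 1 lower in HZ after stimulation, and for the related genes 17 and 47, 13 and 56, 7 and 6. Without a filter on low FPKM, 1 was lower in WT, 5 were higher and 1 lower in KO, 1 was lower in HZ after stimulation and 2 responses were smaller in KO, and the related genes were 16 higher and 46 lower in WT, 20 lower in HZ, 13 higher and 49 lower in KO, 7 higher in unstimulated HZ and 7 smaller responses in KO. Without a filter on low counts, or at an adjusted p below 0.01, 1 gene was lower in HZ against WT after stimulation. The limit of 0.01 also left 8 genes higher in stimulated KO, 7 higher in KO against WT in either state and 4 smaller responses in KO.

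In unstimulated HZ against WT the summed pair was at 0.48, where Hspa1a alone was at -0.43 and Hspa1b alone at 1.04. Reversed values were Hspd1 in stimulated KO (-0.040 with library totals and limma), Hspe1 in WT (-0.061 with library totals, -0.058 or -0.059 with limma) and KO (-0.15 under both), and Hsf1, which was at -0.27 in WT and -0.22 in KO with library totals, at -0.26 and -0.21 with limma on log2(FPKM + 1), and at -0.14 or -0.15 in HZ with limma. The cause was not tested for the limma fits, which use FPKM scaled by library total.

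Leaving out each library in turn gave 8 to 9 of the 10 genes higher in stimulated KO, 7 to 8 higher in KO before and 6 to 8 after stimulation, 6 to 7 lower in HZ before and 1 to 2 lower after stimulation, and 4 to 5 smaller responses in KO, and the other counts of the 10 genes did not move. For the related genes it gave 3 to 6 lower in WT (3 without the first WT library of either state), 8 to 13 lower in KO (8 without the first unstimulated or the second stimulated KO library), 9 to 15 higher in unstimulated HZ (9 without either unstimulated WT or the second unstimulated HZ library) and 6 to 11 smaller responses in HZ (6 without the first stimulated HZ library). Labels number the libraries alike in each group, but same-numbered libraries did not deviate together (r = -0.02 in WT, 0.06 in HZ and -0.02 in KO over 9858 genes). A replicate block left 9 of the 10 genes higher in each genotype, 8 higher and 1 lower in KO and 1 higher and 7 lower in HZ before stimulation. Few counts of unstimulated Hspa1a and Hspa1b limit their folds.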
